A study of Mus musculus with 9 samples.

Results

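IAPEz-int is the repeat name given to the internal, protein-coding part of the intracisternal A particle (IAP), an endogenous retrovirus of the mouse genome. All rows of the count table with that repeat name were taken, which gave 3662 of the 623916 single transposable element (TE) copies in the table, and the choice used no measured value. RNA had been sequenced from early-passage mouse embryonic stem cells (ESCs) of the C57BL/6 strain, with 3 libraries each of G4 Terc-/- ESCs, G1 Terc-/- ESCs and wild-type (WT) ESCs. Terc encodes the RNA template of telomerase. G4 Terc-/- ESCs came from blastocysts of intercrossed G3 Terc-/- mice, G1 Terc-/- ESCs came from blastocysts of intercrossed Terc+/- mice, and all groups shared a feeder culture that was removed before RNA extraction. The comparisons ask whether IAPEz-int RNA differs in cells that lack telomerase, and whether it differs between an early and a late generation of that loss. The labels do not say that the 3 libraries of a group were separate cultures, so p-values measure the spread between libraries. The cell line and the generation cannot be told apart. Terc overlapped no row of the table, so the group labels rest on the submitters.

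An intact IAP copy has a long terminal repeat (LTR) at each end, which holds the promoter and the polyadenylation signal, and an internal part with the gag, pro and pol genes. IAPs are among the youngest and most mobile retroviruses of the mouse. In ESCs they are held silent by H3K9me3 and DNA methylation, with KRAB zinc finger proteins and the co-repressor TRIM28 as recruiters. Copies within or beside genes are known for reading into, or starting, transcripts of those genes.

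The copies ranged from 80 to 6647 bp with a median of 2344 bp, and their divergence from the family consensus ranged from 0 to 241 per 1000 bases with a median of 30. Some rows are parts of the same insertion, and joining rows within 10000 bp on the same strand gave 2332 loci. The length distribution had a peak of 803 copies of 6200 to 6600 bp, close to full length. A further 202 pairs of abutting rows on the same strand held a 5′ row of 1100 to 1400 bp (median 81 per 1000 divergent) and a 3′ row of 2900 to 3400 bp (median 20 per 1000 divergent). These lengths were picked after the distribution was seen. In the pair that forms part of annotated exons of Noct, the 5′ row aligned up to base 1310 and the 3′ row from base 3206 of a full-length copy of 6465 bp in D10Wsu102e, so that 1895 bases between them had no counterpart. Such copies are called deletion-form copies here.

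**Figure D1:**
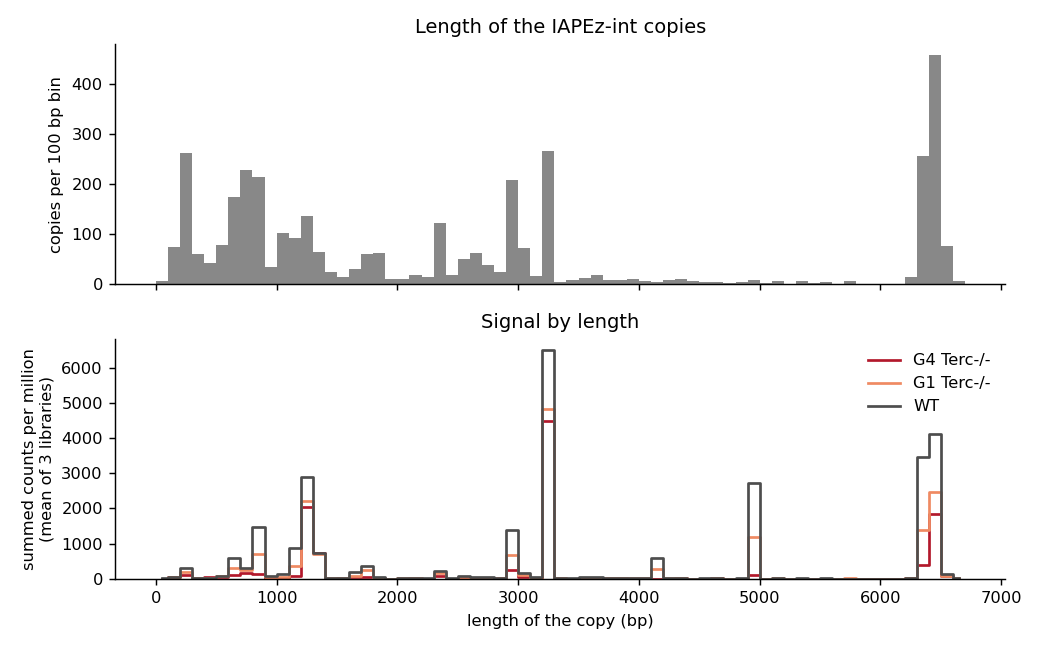
Number of IAPEz-int copies per 100 bp of length (top) and their summed CPM as the mean of 3 libraries per group (bottom; G4 Terc-/- red, G1 Terc-/- orange, WT grey). Copies of 6200 to 6600 bp numbered 803, and the signal stood in a few length peaks, in each group.

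The boundary of the deletion is shown because it separates the full-length rows from the paired rows to which most of the signal in G4 Terc-/- ESCs belonged. The bases were read from GENCODE M21 transcripts (GRCm38), which cover 80 of the copies by at least 60 bp, and are written in the sense of the retrovirus. Capitals mark the 60 bases 5′ of the boundary, and the small letters the 60 bases 3′ of it. The full-length copy shown lies on the plus strand in an intron of Ccdc15 and was read from the unclassified gene model Gm47652, at chr9:37332887-37333006. It is not the copy in D10Wsu102e, and the boundary lies at its base 1211. The deletion-form copy, on the minus strand in the unclassified gene model Gm42860, is shown at chr5:60807252-60807371.
Full-length copy: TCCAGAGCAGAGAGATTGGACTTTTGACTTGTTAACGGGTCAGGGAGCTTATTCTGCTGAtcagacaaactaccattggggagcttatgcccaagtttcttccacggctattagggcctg
Deletion-form copy: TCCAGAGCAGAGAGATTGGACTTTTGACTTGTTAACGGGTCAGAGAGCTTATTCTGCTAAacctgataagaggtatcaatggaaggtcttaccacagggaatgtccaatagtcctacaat
The copies were identical at 58 of the 60 bases before the boundary and at 13 of the 60 bases after it.

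The start of the same full-length copy, at chr9:37331736-37331795 on the plus strand, is shown because the primer binding site for reverse transcription lies at the start of a retroviral internal part.
First bases: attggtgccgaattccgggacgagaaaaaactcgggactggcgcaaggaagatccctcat
The whole full-length copy, chr9:37331736-37338109, had 34.1, 14.6 and 18.0 CPM (counts relative to the library total, scaled by TMM) in G4 Terc-/- ESCs, 14.6, 12.4 and 16.5 CPM in G1 Terc-/- ESCs and 34.4, 33.4 and 15.4 CPM in WT ESCs. Its groups overlapped and it was called in no comparison, with a log2 difference of -0.34 (SE 0.34, adjusted p = 0.446, edgeR quasi-likelihood test) between G4 Terc-/- and WT ESCs.

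Likeness between copies sets a limit on every value below. The 3′ row in Noct and the row in Slc38a6 were 98.9% identical over 2954 aligned bases and shared an unbroken identical stretch of 378 bases. The 3′ row in Noct and that in Gm42860 were 98.7% identical with a longest identical stretch of 303 bases. Reads that match many copies had been divided among them upstream, and 3181 of the 3662 IAPEz-int copies (86.9%) held a value that was not a whole number, against 8.83% of all copies. The 481 copies with whole values in every library held 1.22% of the IAPEz-int counts. A value of a single copy is therefore an estimate that can carry reads of its near-identical relatives.

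IAPEz-int RNA was lower in both generations of Terc-/- ESCs. It took 1.11, 1.24 and 1.22% of all TE counts in the G4 Terc-/- libraries, 1.62, 1.67 and 1.61% in the G1 Terc-/- libraries and 2.76, 2.77 and 2.70% in the WT libraries. The groups did not overlap, and the G1 Terc-/- libraries lay between the others. Summed over all copies, the level was 11183 ± 907 CPM in G4 Terc-/- ESCs, 16966 ± 360 CPM in G1 Terc-/- ESCs and 28248 ± 617 CPM in WT ESCs (SD, n = 3 each). The log2 difference was -1.34 (SE 0.04, adjusted p = 4.34e-16, edgeR quasi-likelihood test over 853 repeat names) for G4 Terc-/- against WT, where 46.5% of repeat names were called. It was -0.74 (SE 0.04, adjusted p = 1.9e-10, edgeR) for G1 Terc-/- against WT, where 11.8% were called, and -0.60 (SE 0.04, adjusted p = 2.65e-10, edgeR) for G4 Terc-/- against G1 Terc-/-, where 42.4% were called. Summed over only the 481 copies with whole values, a subset picked by these same counts, the log2 difference was -0.28 (adjusted p = 0.0309, edgeR) for G4 Terc-/- against WT, and neither other comparison passed (-0.19, adjusted p = 0.313, and -0.10, adjusted p = 0.508).

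**Figure D2:**
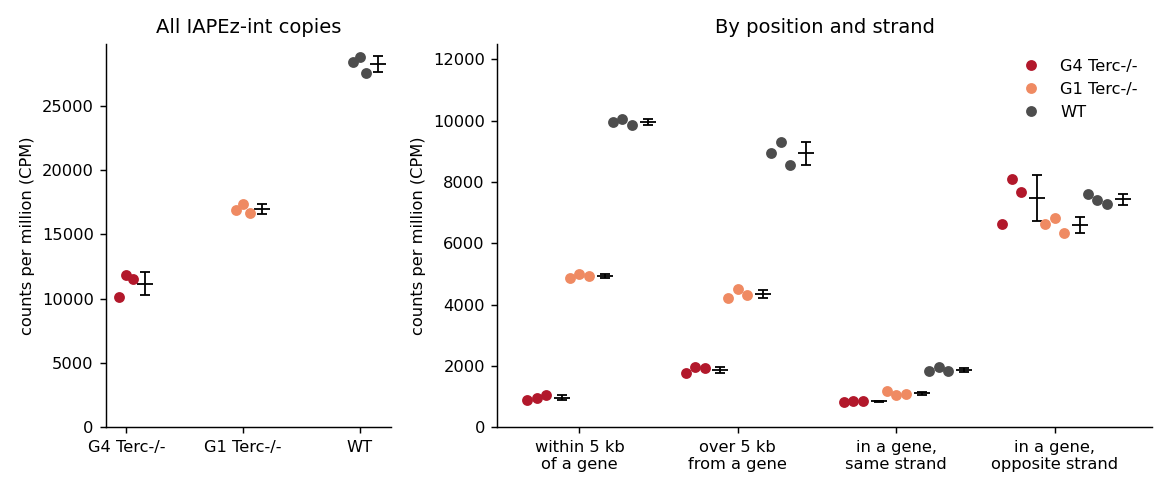
Summed IAPEz-int level in each library (points, CPM) with the mean and SD of 3 libraries beside them, for all copies (left) and by the position and strand of the copy relative to annotated genes (right). All copies together averaged 11183, 16966 and 28248 CPM in G4 Terc-/-, G1 Terc-/- and WT ESCs, and copies on the opposite strand of a gene averaged 7473, 6600 and 7432 CPM.

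Fewer copies carried the signal in G4 Terc-/- ESCs. Copies with a value above 0 numbered 1179 to 1277 in the G4 Terc-/- libraries, 1459 to 1697 in the G1 Terc-/- libraries and 1824 to 1940 in the WT libraries. A lower IAPEz-int total by itself lowers this number, and the totals were 10205 to 13115, 15072 to 19042 and 26147 to 28780 counts in the same groups. The 10 copies with the highest values held 47.6 to 52.1% of IAPEz-int counts in G4 Terc-/- libraries, 31.9 to 32.5% in G1 Terc-/- libraries and 33.8 to 34.4% in WT libraries. Of the 10 leading copies of each group, 9 lay in introns on the opposite strand of the gene in G4 Terc-/- ESCs, 5 in G1 Terc-/- ESCs and 1 in WT ESCs. These rows are not separate insertions. In G4 Terc-/- ESCs they include both rows of the deletion-form copies in Kcnh6, Mbnl1, Rnf157 and Gm13710. In G1 Terc-/- ESCs they include both rows in Kcnh6 and in Gm13710. A few insertions thus held much of the intronic signal. The leading copy of G4 Terc-/- ESCs was the deletion-form 3′ row in an intron of Kcnh6, with 9.93% of the counts of that group, and the leading copy of G1 Terc-/- and WT ESCs lay near the lincRNA gene Gm16001, with 6.76% and 9.57%.

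The summed level of markers of primitive endoderm, the extraembryonic layer into which ESC cultures can drift, moved with the IAPEz-int level and is given here beside it. Genes could be read only through repeats in their exons. Of 12 listed markers 6 had counts, with Gata6, Sox17, Foxa2, Lama1, Lamc1 and Col4a1 at 0. Their summed level was 123 to 171 CPM in G4 Terc-/- libraries, 1900 to 2010 CPM in G1 Terc-/- libraries and 4180 to 4600 CPM in WT libraries. Most of it came from Col4a2, a basement membrane collagen, and Gata4, a transcription factor of that layer. Of the 4 markers tested between G4 Terc-/- and WT ESCs, 3 fell (Col4a2, Gata4 and Pdgfra) and 1 rose (24% and 24.4% of tested genes). The marker that rose was Sparc, a matrix protein, with 43.8 ± 7.79, 15.2 ± 4.44 and 10.9 ± 2.57 CPM in G4 Terc-/-, G1 Terc-/- and WT ESCs (log2 difference 2.01, SE 0.31, adjusted p = 2.99e-07, edgeR). Of 18 ESC markers 8 had counts, with Pou5f1, Sox2, Klf4, Klf2, Utf1, Sall4, Dppa5a, Dppa4, Tbx3 and Nr0b1 at 0. Their sum was 22200 to 28700, 12200 to 13400 and 7920 to 8500 CPM in G4 Terc-/-, G1 Terc-/- and WT libraries. Tdgf1 had the largest part, with means of 16521, 6681.5 and 4330 CPM. Of the 6 ESC markers tested, 5 rose in G4 Terc-/- against WT ESCs and Lin28a was not called (-0.17, adjusted p = 0.0945, edgeR). Of 14 feeder fibroblast markers 4 had counts, with Col1a2, Col3a1, Postn, Acta2, Lum, Tagln, Fbn1, S100a4, Twist1 and Twist2 at 0. Their sum was 76.6 to 92.7, 62.9 to 84.3 and 36.3 to 53.7 CPM in the same order. Nearly all of it came from Col1a1, the only 1 tested, with means of 84.6, 69.4 and 44.0 CPM. It was higher than in WT ESCs by 0.94 in G4 Terc-/- and by 0.65 in G1 Terc-/- ESCs (adjusted p = 3.75e-05 and 0.02, edgeR). The part of these cells in the IAPEz-int result was not tested, and fewer cells with IAP RNA cannot be told apart from less IAP RNA per cell.

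At the level of single copies, 240 of the 3662 passed the filter on low counts and held 81.1% of the IAPEz-int counts, while 1838 copies (50.2%) had fewer than 5 counts over all libraries. A copy could pass through its level in a single group, so the counts that follow describe the copies that passed and not all copies. Between G4 Terc-/- and WT ESCs, 152 fell and 24 rose (adjusted p under 0.05, edgeR over 13278 copies of all repeats), where 21.3% of all tested copies were called lower and 21.3% higher. The libraries of the groups did not overlap for 147 copies that were lower and 24 that were higher in G4 Terc-/- ESCs, against 25.9% and 26.2% of all tested copies. The median log2 difference was -2.12, or -2.10 with the 27 copies whose counts in a group rounded to 0 set at the floor of 3 counts, against -0.02 over all tested copies. Between G1 Terc-/- and WT ESCs, 79 fell and 8 rose, where 4.36% of all tested copies were called lower and 2.41% higher, and the median was -0.78 against 0.01. With a fold of at least 2 as well, 148 fell and 14 rose between G4 Terc-/- and WT ESCs (15.1% and 15.5% of all tested copies), and 65 fell and 3 rose between G1 Terc-/- and WT ESCs (2.21% and 1.02%). Between G4 Terc-/- and G1 Terc-/- ESCs, 114 fell and 25 rose, where 19.2% were called lower and 19% higher, and the median was -1.31 against -0.05. The 3 comparisons share libraries. Of the 152 copies that were lower in G4 Terc-/- than in WT ESCs, 75 were also called lower and 2 called higher in G1 Terc-/- than in WT ESCs, and of the 24 that were higher, 4 were also called higher and 2 called lower.

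The sums differed widely by where a copy lay relative to genes. Copies within 5000 bp of a gene, 489 in all, averaged 974 ± 71.5 CPM in G4 Terc-/- ESCs, 4927 ± 63.5 CPM in G1 Terc-/- ESCs and 9961 ± 101 CPM in WT ESCs (SD, n = 3 each), a log2 difference of -3.35 (SE 0.05, adjusted p = 3e-22, edgeR) for G4 Terc-/- against WT. A single row near Gm16001, chr5:124104856-124109757, held 24.4% of the counts of this class. The adjacent row of the same insertion, chr5:124109764-124110597, is in the class too. It had 5570.89 counts over all libraries beside 11383.57 for the first row, so the insertion held more than that share. The 2124 copies over 5000 bp from any gene averaged 1887 ± 97.3, 4347 ± 137 and 8943 ± 373 CPM in the same groups, a log2 difference of -2.24 (SE 0.05, adjusted p = 1.65e-19, edgeR). The 1015 intronic copies averaged 8188 ± 768, 7590 ± 269 and 9111 ± 185 CPM, a log2 difference of -0.15 (SE 0.05, adjusted p = 0.0139, edgeR) that was -0.02 (adjusted p = 0.69) with library totals as the only scaling. Without its copy with most counts, the intronic sum had a log2 difference of -0.26. Of 105 tested intronic copies, 54 were called lower and 18 higher, with a median log2 difference of -1.42. Of 48 tested copies within 5000 bp of a gene, 35 were called lower and 2 higher (median -2.65), and of 84 over 5000 bp away, 61 and 4 (median -2.92). Among all tested copies 21.3% were called lower and 21.3% higher. Within a library, the log2 ratio of copies within 5000 bp to intronic copies was -3.02, -3.18 and -3.01 in G4 Terc-/- libraries and 0.11, 0.13 and 0.15 in WT libraries, a difference of -3.20. The ratio of copies over 5000 bp away to intronic copies differed by -2.09 between the same groups. Both ratios were lower in 3 of 3 G4 Terc-/- libraries than in any WT library. The exact two-sided permutation test gave p = 0.1, the smallest that 3 against 3 libraries allow, with an adjusted p of 0.1 over 27 such comparisons.

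The intronic share of IAPEz-int counts was 73.2 ± 1.0% in G4 Terc-/- ESCs, 44.7 ± 0.93% in G1 Terc-/- ESCs and 32.3 ± 0.33% in WT ESCs (SD, n = 3 each). By strand, copies on the opposite strand of their gene averaged 7473 ± 751 CPM in G4 Terc-/- ESCs, 6600 ± 256 CPM in G1 Terc-/- ESCs and 7432 ± 165 CPM in WT ESCs. Their sum did not pass the test between G4 Terc-/- and WT ESCs (log2 difference 0.01, SE 0.05, adjusted p = 0.91, edgeR), and with library totals as the only scaling it was 0.14 higher in G4 Terc-/- ESCs (adjusted p = 0.00969). Of 75 tested copies of that class, 38 were called lower and 13 higher, where 21.3% of all tested copies were called lower and 21.3% higher, and their median log2 difference was -1.74. Copies on the same strand as their gene averaged 848 ± 18.6, 1106 ± 63.0 and 1875 ± 67.9 CPM and had a log2 difference of -1.14 (SE 0.05, adjusted p = 5.37e-13, edgeR), with 18 of 33 tested copies called lower and 5 higher, against the same shares. No source used here says that reads were counted by strand, so reads of a copy and of an intron or unspliced transcript across it cannot be told apart.

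**Figure D3:**
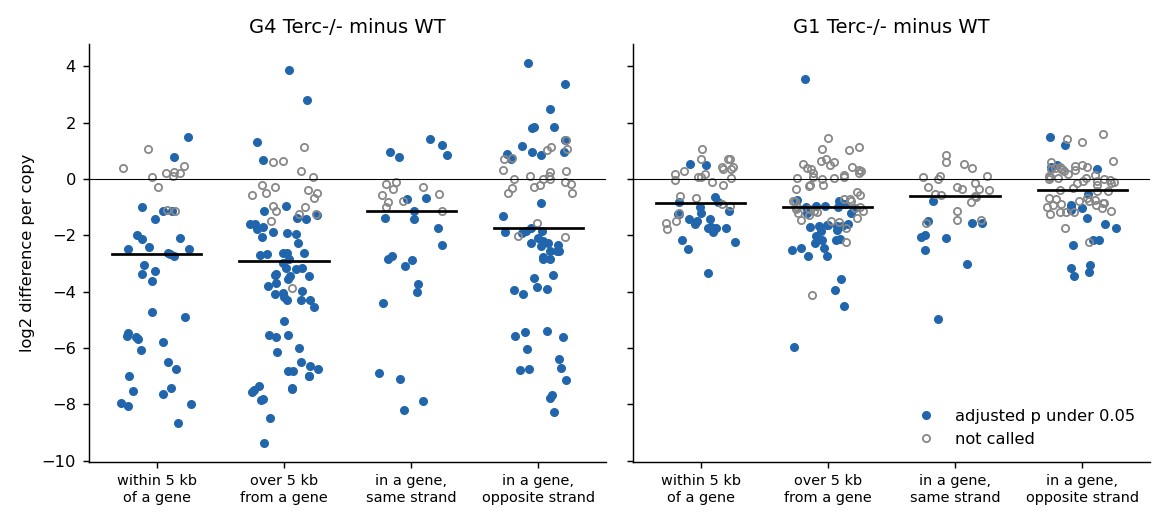
Log2 difference of each of the 240 tested copies between G4 Terc-/- and WT ESCs (left) and between G1 Terc-/- and WT ESCs (right), by position and strand relative to genes, with filled points for an adjusted p under 0.05 and a bar at the median. Copies without counts in a group are drawn at their fitted value, which is no bound; 152 copies were called lower and 24 higher in G4 Terc-/- ESCs.

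Classes of length and divergence spanned a narrower range. The 841 copies of 5000 bp or more averaged 2345 ± 102 CPM in G4 Terc-/- ESCs, 4010 ± 167 CPM in G1 Terc-/- ESCs and 7800 ± 129 CPM in WT ESCs, a log2 difference of -1.73 between G4 Terc-/- and WT ESCs (SE 0.04, adjusted p = 6.96e-18, edgeR). It was -1.23 for copies from 2000 bp up to 5000 bp, -1.19 for copies from 500 bp up to 2000 bp and -0.97 for copies under 500 bp (SE 0.05, 0.05 and 0.08). The within-library ratio of the longest class to copies from 500 bp up to 2000 bp differed by -0.54 (exact permutation p = 0.1, the smallest possible). By divergence, the least diverged copies (up to 22 per 1000) had a log2 difference of -1.80, those between -1.14 and the most diverged copies (over 53 per 1000) -0.78 (SE 0.05 each). That order rested in part on single copies, because without the copy with most counts in each class the values were -1.51, -1.52 and -0.98. Among the 240 tested copies, Spearman's rho of the log2 difference with length was 0.02 and with divergence 0.05. These copies share libraries, reads and insertions, and the values are descriptions.

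Full-length copies of 6200 to 6600 bp averaged 2321 ± 100 CPM in G4 Terc-/- ESCs, 3951 ± 168 CPM in G1 Terc-/- ESCs and 7728 ± 130 CPM in WT ESCs. The 202 deletion-form pairs averaged 7172 ± 776, 7711 ± 160 and 10110 ± 347 CPM in the same groups. No test was made of these sums, since the forms were defined after the lengths were seen. In the difference between G4 Terc-/- and WT ESCs, the 2 forms were closer to each other by single copies than by sums. Of 77 tested full-length copies, 49 were called lower and 6 higher, with a median log2 difference of -2.03. Of 90 tested rows of the pairs, 61 were called lower and 13 higher (median -2.16). Among all tested copies 21.3% were called lower and 21.3% higher. In 31 pairs both rows passed the filter, and the log2 differences of both rows had the same sign in 31 of 31. Both rows were called in 24 pairs, 18 of them lower and 6 higher in G4 Terc-/- than in WT ESCs. The rows of a pair lie in the same insertion and may share reads and transcripts.

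**Figure D4:**
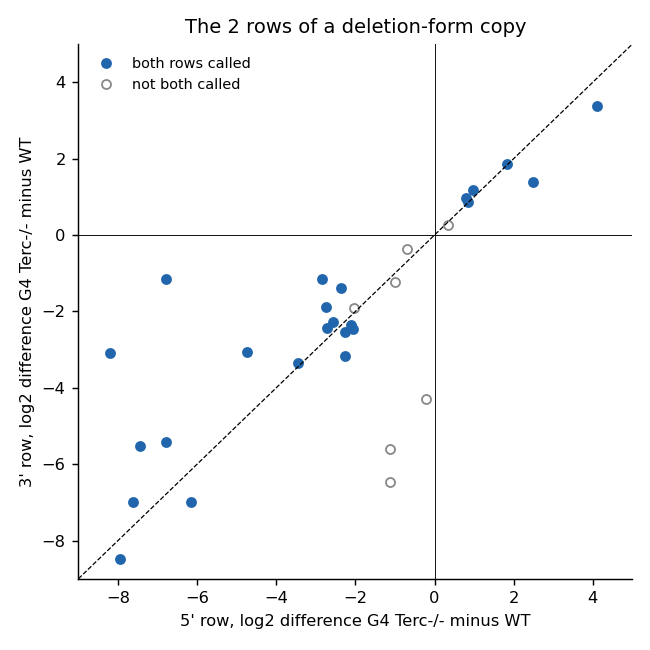
Log2 difference between G4 Terc-/- and WT ESCs for the 5′ row (x axis) and the 3′ row (y axis) of 31 deletion-form copies with both rows tested, with filled points where both rows were called (24) and a dashed line of equality. Rows without counts in G4 Terc-/- ESCs are drawn at their fitted value, and no pair had rows of opposite sign.

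Distance to the chromosome end was compared because telomeres cap the ends. The 42 copies within 1 Mb of an end averaged 42.0 ± 5.57 CPM in G4 Terc-/- ESCs, 75.4 ± 12.4 CPM in G1 Terc-/- ESCs and 125 ± 24.2 CPM in WT ESCs, a log2 difference of -1.56 (SE 0.18, adjusted p = 4.9e-07, edgeR) that was -1.04 without the copy with most counts. It was -0.61 for the 1192 copies from 1 to 20 Mb and -1.66 for the 2413 copies over 20 Mb from an end (SE 0.05 and 0.04). The 3′ row in Kcnh6 held 16.3% of the counts from 1 to 20 Mb. The classes from 1 to 20 Mb and over 20 Mb were closer to each other by single copies than by sums. Of 68 tested from 1 to 20 Mb, 38 were called lower and 8 higher (median log2 difference -1.74). Of 169 tested over 20 Mb away, 112 were called lower and 16 higher (median -2.205). Among all tested copies 21.3% were called lower and 21.3% higher. Copies on autosomes fell by 1.35 and copies on X by 0.92 on the log2 scale (SE 0.04 and 0.13). The 72 copies on Y averaged 55.4 ± 11.5, 52.4 ± 6.61 and 62.1 ± 5.94 CPM in G4 Terc-/-, G1 Terc-/- and WT ESCs, which was not past the threshold (log2 difference -0.16, SE 0.18, adjusted p = 0.487, edgeR).

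The copy with most counts of all, chr5:124104856-124109757, is 4902 bp long, 16 per 1000 divergent and 1352 bp from Gm16001. It had 49.5, 43.9 and 61.1 CPM in G4 Terc-/- libraries, 1090, 1063 and 1214 CPM in G1 Terc-/- libraries and 2658, 2608 and 2711 CPM in WT libraries. The groups were far apart, with G1 Terc-/- between the others, and the log2 difference was -5.68 (SE 0.11, adjusted p = 7.41e-23, edgeR) for G4 Terc-/- against WT and -1.24 (SE 0.08, adjusted p = 1.56e-10, edgeR) for G1 Terc-/- against WT. Its 5′ neighbour chr5:124109764-124110597 fell by 5.59 on the log2 scale in G4 Terc-/- ESCs (SE 0.14). The IAPLTR1_Mm elements that flank this insertion fell by 5.08 and 3.70 on the same scale (adjusted p = 4.5e-12 and 3.67e-14, edgeR). Repeats other than IAPs within 10000 bp of the insertion summed to 16.3 CPM in G4 Terc-/- ESCs, 31.9 CPM in G1 Terc-/- ESCs and 49.7 CPM in WT ESCs.

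The full-length copy chr4:117192478-117198858, 2421 bp from the snRNA gene Gm25099, had 3.30, 0 and 4.49 CPM in G4 Terc-/- libraries, 373, 384 and 332 CPM in G1 Terc-/- libraries and 1116, 1113 and 1054 CPM in WT libraries. It fell by 8.67 on the log2 scale in G4 Terc-/- ESCs and by 1.59 in G1 Terc-/- ESCs (SE 0.22 and 0.12, adjusted p = 1.73e-20 and 8.15e-10, edgeR), again with no overlap between groups. The copy chr15:73083462-73087600 lies 2792 bp from Chrac1, a histone-fold subunit of a chromatin remodelling complex. It had 0, 0 and 4.49 CPM in G4 Terc-/- libraries, 241, 274 and 260 CPM in G1 Terc-/- libraries and 416, 483 and 484 CPM in WT libraries, and fell by 8.06 on the log2 scale in G4 Terc-/- ESCs (SE 0.29, adjusted p = 1.27e-17, edgeR). For both copies the G1 Terc-/- libraries lay between the other groups. The 3′ row chr11:51665383-51668653, 7702 bp from D930048N14Rik, had 96.7, 119 and 106 CPM in G4 Terc-/- libraries, 352, 369.5 and 355 CPM in G1 Terc-/- libraries and 1191, 1059 and 1064 CPM in WT libraries. It kept the same order of groups, and fell by 3.36 in G4 Terc-/- and by 1.62 in G1 Terc-/- ESCs on the log2 scale (SE 0.11 and 0.09, adjusted p = 1.2e-18 and 2.47e-11, edgeR).

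Some copies had no or nearly no counts in G4 Terc-/- ESCs, and for these only a bound or a counting interval can be given. Of the 240 tested copies, 19 had 0 counts in G4 Terc-/- ESCs, 1 in G1 Terc-/- ESCs and 0 in WT ESCs. A copy at 0 in a group could pass the filter only through another group, so the filter in part sets these numbers. The share over all tested copies was not counted, and no conclusion is drawn from them. The full-length copy chr11:85285923-85292328, 5124 bp from the nearest gene model, had 0 counts in the 3 G4 Terc-/- libraries, 40.7, 45.2 and 38.5 CPM in G1 Terc-/- libraries and 81.2, 66.8 and 95.0 CPM in WT libraries. Against a floor of 3 counts over the group it was at least 84.6-fold lower in G4 Terc-/- than in WT ESCs (adjusted p = 1.94e-12, edgeR). Both rows of a deletion-form copy near Cemip, which encodes a hyaluronan-degrading protein, had 0 counts in G4 Terc-/- ESCs, and were at least 46.4-fold (3′ row, chr7:83924059-83927335) and at least 31.8-fold (5′ row, chr7:83927335-83928581) lower than in WT ESCs. In an intron of the cadherin gene Cdh18, chr15:22751832-22753088 was at least 37.4-fold lower in G4 Terc-/- than in WT ESCs. On the opposite strand in an intron of the chemokine receptor gene Ccr9, chr9:123743070-123749457 had 0.25 counts in G4 Terc-/- ESCs and was at least 39.5-fold lower than in WT ESCs. The copy chr1:74653788-74660232, 1513 bp from the tubulin polyglutamylase gene Ttll4, had 1.12 counts in G4 Terc-/- ESCs and 328.93 counts in WT ESCs, a ratio of 0.00289 (95% exact interval 7.28e-05 to 0.0162, counting error only).

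**Figure D5:**
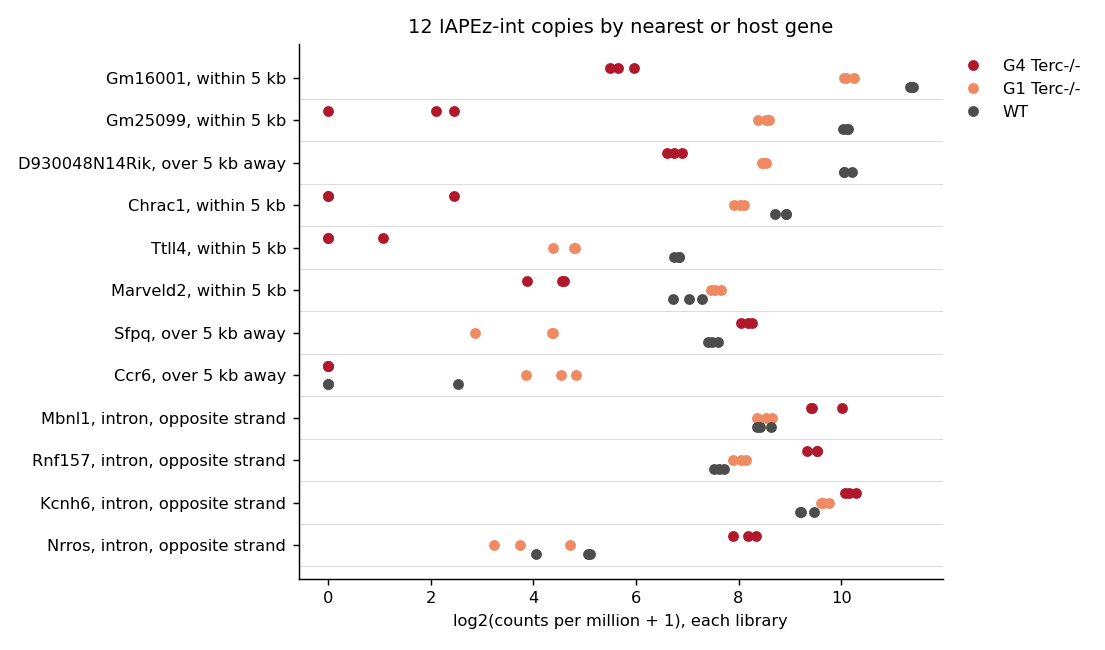
Level of 12 IAPEz-int copies in each library as log2(CPM + 1), named by the nearest gene or the gene whose intron holds them (G4 Terc-/- red, G1 Terc-/- orange, WT grey). The copy near Gm16001 stood at 43.9 to 61.1 CPM in G4 Terc-/- libraries and at 2608 to 2711 CPM in WT libraries, and the intronic copies at the bottom were highest in G4 Terc-/- libraries.

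Among called copies with a mean of at least 20 counts in the higher group and no overlap, the largest rises in G4 Terc-/- ESCs were mostly deletion-form rows in introns. A copy of 6393 bp with too few counts for that minimum, chr17:47078418-47084810, had 50.8 counts in G4 Terc-/- ESCs and 2.8 counts in WT ESCs, a ratio of 16.1 (95% exact interval 5.22 to 80.8, counting error only). It was chosen after its values were seen. In Nrros, a gene of TGF-beta activation in myeloid cells, the 5′ row chr16:32148445-32149702 had 194, 187 and 188 CPM in G4 Terc-/- libraries, 3.13, 4.43 and 6.60 CPM in G1 Terc-/- libraries and 11.5, 10.4 and 10.6 CPM in WT libraries. It was higher by 4.12 on the log2 scale in G4 Terc-/- than in WT ESCs (SE 0.20, adjusted p = 7.05e-15, edgeR), and its 3′ row chr16:32149701-32152967 by 3.37 (SE 0.22, adjusted p = 2.32e-12, edgeR). Neither row was called between G1 Terc-/- and WT ESCs (log2 difference -1.19 and -0.85, adjusted p = 0.0743 and 0.132), though the 3′ row was lower in G1 Terc-/- ESCs without G1 replicate 3 (-1.38, adjusted p = 0.0257) or without WT replicate 2 (-1.14, adjusted p = 0.0386). Other repeats within 10000 bp of the 3′ row held 7 counts in all libraries.

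In Cdk5rap1, which encodes an enzyme that modifies tRNAs, the 5′ row chr2:154354657-154355928 had 118, 135 and 159 CPM in G4 Terc-/- libraries, 57.4, 85.1 and 60.5 CPM in G1 Terc-/- libraries and 27.1, 24.0 and 22.1 CPM in WT libraries. This copy rose in both generations, by a log2 difference of 2.49 in G4 Terc-/- ESCs (SE 0.20, adjusted p = 1.41e-10, edgeR) and 1.48 in G1 Terc-/- ESCs (SE 0.22, adjusted p = 4.1e-05, edgeR), without overlap between any groups. Repeats other than IAPs within 10000 bp of it had 24.4 CPM in G4 Terc-/- ESCs, 14.8 CPM in G1 Terc-/- ESCs and 14.7 CPM in WT ESCs, a log2 ratio of 0.71 for G4 Terc-/- over WT. In Rnf157, which encodes a ubiquitin ligase, the 3′ row chr11:116391049-116394317 had 643, 739 and 742 CPM in G4 Terc-/- libraries, 238, 263 and 283 CPM in G1 Terc-/- libraries and 183, 210 and 195 CPM in WT libraries. It was higher by 1.85 on the log2 scale in G4 Terc-/- than in WT ESCs (SE 0.11, adjusted p = 1.91e-13, edgeR). Repeats other than IAPs within 10000 bp of it had 7.09 CPM in G4 Terc-/- ESCs, 13.4 CPM in G1 Terc-/- ESCs and 29.2 CPM in WT ESCs, a log2 ratio of -1.97 for G4 Terc-/- over WT. Its 3′ LTR was higher by 1.96 (adjusted p = 1.79e-07, edgeR). The other rows of these insertions, chr2:154355927-154359194 in Cdk5rap1 and chr11:116389793-116391050 in Rnf157, were higher by 1.39 and 1.83 (SE 0.13 and 0.12), and neither was called between G1 Terc-/- and WT ESCs. Without WT replicate 1 the row in Rnf157 was called there (log2 difference 0.47, adjusted p = 0.0462, edgeR).

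In Mbnl1, a regulator of splicing, the 3′ row chr3:60490212-60493479 had 687, 1029 and 685 CPM in G4 Terc-/- libraries, 403, 330 and 371 CPM in G1 Terc-/- libraries and 397, 343 and 325 CPM in WT libraries. G4 Terc-/- libraries stood apart, with a log2 difference of 1.17 against WT (SE 0.13, adjusted p = 5.21e-08, edgeR), while G1 Terc-/- and WT libraries overlapped. In Kcnh6, a potassium channel gene, the 3′ row chr11:106028617-106031883 had 1075, 1259 and 1130 CPM in G4 Terc-/- libraries, 780, 865 and 805 CPM in G1 Terc-/- libraries and 711, 594 and 589 CPM in WT libraries. It rose by 0.87 on the log2 scale in G4 Terc-/- ESCs (SE 0.09, adjusted p = 2.07e-08, edgeR) and by 0.37 in G1 Terc-/- ESCs (SE 0.09, adjusted p = 0.0107, edgeR), and the second of these calls was lost without G1 replicate 2 (adjusted p = 0.0698), WT replicate 2 (0.111) or WT replicate 3 (0.117). The 5′ row chr11:106031882-106033193 in Kcnh6 rose by 0.84 in G4 Terc-/- ESCs and by 0.51 in G1 Terc-/- ESCs (SE 0.10 each, adjusted p = 8.38e-08 and 0.000983, edgeR). With a filter at 5 counts in all, neither row was called between G1 Terc-/- and WT ESCs (adjusted p = 0.55 and 0.088, edgeR). Repeats other than IAPs within 10000 bp had 13.6, 12.3 and 8.92 CPM beside the 3′ row and 14.8, 15.4 and 10.3 CPM beside the 5′ row in G4 Terc-/-, G1 Terc-/- and WT ESCs. In Sirt5, a mitochondrial deacylase gene, chr13:43387132-43392095 lies on the same strand as the gene, is no deletion-form row at 4964 bp, and was higher by 1.42 in G4 Terc-/- than in WT ESCs (SE 0.28, adjusted p = 0.000204, edgeR).

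The order of G4 Terc-/- below G1 Terc-/- below WT did not hold for all copies. Of the 152 copies called lower in G4 Terc-/- than in WT ESCs, 128 had a G1 Terc-/- mean below that of WT ESCs. Those 152 were chosen through the same WT libraries. Of the 240 tested copies, 25 (10.4%) were called higher in G4 Terc-/- than in G1 Terc-/- ESCs, against 19% of all tested copies. The full-length copy chr4:127008876-127015333, 5991 bp from the splicing factor gene Sfpq, had 264, 305 and 289 CPM in G4 Terc-/- libraries, 6.26, 19.5 and 19.8 CPM in G1 Terc-/- libraries and 169, 194 and 179 CPM in WT libraries. It was low in G1 Terc-/- libraries alone, with a log2 difference of -3.55 for G1 Terc-/- against WT (SE 0.21, adjusted p = 2.47e-11, edgeR), 4.21 for G4 Terc-/- against G1 Terc-/- (SE 0.20, adjusted p = 7.53e-15, edgeR) and 0.66 for G4 Terc-/- against WT (SE 0.14, adjusted p = 0.000409, edgeR). Its flanking LTRs held 39.41 and 56.41 counts in G4 Terc-/- ESCs, 0 and 0.05 counts in G1 Terc-/- ESCs and 32.59 and 17.65 counts in WT ESCs. The full-length copy chr17:8216337-8222791, 13252 bp from the chemokine receptor gene Ccr6, had 0 counts in G4 Terc-/- libraries, 13.6, 22.2 and 27.5 CPM in G1 Terc-/- libraries and 0, 0 and 4.80 CPM in WT libraries. It was higher in G1 Terc-/- than in WT ESCs by 3.55 on the log2 scale (SE 0.72, adjusted p = 0.00241, edgeR) and at least 21.6-fold lower in G4 Terc-/- than in G1 Terc-/- ESCs.

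The 5′ row near Marveld2, a tight junction gene, at chr13:100592583-100593870, had 23.1, 13.7 and 22.5 CPM in G4 Terc-/- libraries, 175, 185 and 200.2 CPM in G1 Terc-/- libraries and 105, 156 and 129.6 CPM in WT libraries. It fell by 2.72 on the log2 scale in G4 Terc-/- ESCs (SE 0.20, adjusted p = 3.09e-11, edgeR). Its log2 difference of 0.52 between G1 Terc-/- and WT ESCs (adjusted p = 0.0287, edgeR) missed the threshold without any 1 of G1 replicates 1, 2 and 3 or WT replicates 1 and 3 (adjusted p = 0.0653 to 0.178). The copy chr12:48532550-48538950, 16358 bp from the nearest gene model, was low in both generations, with 2.04 counts in G4 Terc-/- ESCs, 2.38 counts in G1 Terc-/- ESCs and 145.81 counts in WT ESCs. Its ratio was 0.013 for G4 Terc-/- over WT (95% exact interval 0.00156 to 0.0478) and 0.0135 for G1 Terc-/- over WT (0.00162 to 0.0498), from counting error alone. Other copies low in both generations were chr5:77559996-77566390, with 3.42 counts in G1 Terc-/- ESCs and 76.07 counts in WT ESCs, and chr15:12056353-12062671, at least 28.9-fold lower in G4 Terc-/- than in WT ESCs. In an intron of Gm15494, chr7:4455796-4459064 was higher in G4 Terc-/- ESCs by 1.57 against G1 Terc-/- ESCs and by 0.97 against WT ESCs on the log2 scale. On the opposite strand in an intron of the calpain gene Capn9, chr8:124578743-124581698 had 77.69 counts in G1 Terc-/- ESCs and 79.37 counts in WT ESCs but 0 in G4 Terc-/- ESCs, at least 27.9-fold lower than in WT ESCs.

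Copies that are part of annotated exons held little of the signal. The 19 exonic copies averaged 129 ± 14.2 CPM in G4 Terc-/- ESCs, 122 ± 14.8 CPM in G1 Terc-/- ESCs and 194 ± 17.3 CPM in WT ESCs, with a log2 difference of -0.59 for G4 Terc-/- against WT (SE 0.12, adjusted p = 0.000349, edgeR) and -0.67 for G1 Terc-/- against WT (SE 0.12, adjusted p = 0.00085, edgeR). The 5′ row in Noct, a gene of circadian metabolism, at chr3:51240387-51241612, had 35.2, 23.8 and 40.4 CPM in G4 Terc-/- libraries, 34.4, 27.5 and 48.4 CPM in G1 Terc-/- libraries and 66.7, 40.7 and 52.8 CPM in WT libraries. Its difference of -0.69 between G4 Terc-/- and WT ESCs (SE 0.25, adjusted p = 0.0273, edgeR) was lost without G4 replicate 2 (-0.48, adjusted p = 0.174) or WT replicate 1 (-0.52, adjusted p = 0.137). The 3′ row in Noct, chr3:51241611-51244882, was called lower in G1 Terc-/- than in WT ESCs (-0.79, SE 0.21, adjusted p = 0.0162, edgeR) but not in G4 Terc-/- ESCs (-0.36, SE 0.20, adjusted p = 0.146, edgeR). The call was lost without G1 replicate 1 (adjusted p = 0.106) or WT replicate 2 (0.0822). The row in Slc38a6, at chr12:73311375-73314328, had a log2 difference of -0.86 (adjusted p = 0.0289, edgeR) that was lost without G4 replicate 2 (adjusted p = 0.208), G4 replicate 3 (0.081) or WT replicate 3 (0.231). The longest tested copy, chr5:38406028-38412512 in an intron of the urate transporter gene Slc2a9, had 2.46 counts in G4 Terc-/- ESCs and 38.46 counts in WT ESCs, a ratio of 0.05 (95% exact interval 0.00584 to 0.193). The least diverged tested copy, chr4:61949944-61956321 at 7 per 1000, fell by 2.12 on the log2 scale in G4 Terc-/- ESCs (SE 0.61, adjusted p = 0.00607, edgeR).

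The surroundings of the copies were read through repeats other than IAPs within 10000 bp, where these had at least 50 counts. Beside 44 copies that were lower in G4 Terc-/- than in WT ESCs, the log2 ratio of the neighbours between the same groups had a median of -0.89 and was below 0 for 39. Beside 13 copies that were higher, it had a median of 0.50 and was below 0 for 3, and beside 37 copies that were not called it had a median of -0.28 and was below 0 for 26. Individual surroundings ranged from -5.44 to 1.88. Surroundings were counted for each copy, so rows of the same insertion have overlapping surroundings and the numbers above are not separate places. Such rows can still differ, with 18 and 357 neighbour counts beside the 2 rows near D930048N14Rik. These ratios are descriptions, and neighbours can share a transcript with the copy.

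Other IAP names did not move alike. IAPLTR1_Mm, the LTR that flanked 31 of the 35 copies chosen by rule, averaged 997 ± 138 CPM in G4 Terc-/- ESCs, 1379 ± 34.3 CPM in G1 Terc-/- ESCs and 2118 ± 36.3 CPM in WT ESCs, a log2 difference of -1.09 between G4 Terc-/- and WT ESCs (SE 0.07, adjusted p = 6.9e-11, edgeR). IAP1-MM_I-int, another internal part, averaged 904 ± 83.6, 829 ± 36.4 and 846 ± 65.0 CPM, which was not past the threshold (0.10, SE 0.07, adjusted p = 0.284, edgeR), and IAP-d-int averaged 405 ± 6.26, 341 ± 16.7 and 301 ± 12.4 CPM and rose by 0.43 (SE 0.08, adjusted p = 8.39e-05, edgeR). IAPEy-int averaged 277 ± 48.0, 13.4 ± 2.86 and 30.8 ± 2.76 CPM and rose by 3.17 (SE 0.16, adjusted p = 1.9e-12, edgeR). Of the internal parts that fell, IAPEY4_I-int averaged 309.7 ± 26.3, 519 ± 32.7 and 734 ± 68.3 CPM in G4 Terc-/-, G1 Terc-/- and WT ESCs (-1.24, SE 0.08, adjusted p = 1.3e-10, edgeR). IAPA_MM-int averaged 44.3 ± 6.49, 83.8 ± 21.7 and 155 ± 13.8 CPM in the same groups (-1.80, SE 0.17, adjusted p = 3.05e-08, edgeR). The within-library log2 ratio of IAPEz-int to IAP1-MM_I-int was 3.63, 3.59 and 3.68 in G4 Terc-/- libraries and 4.97, 5.06 and 5.15 in WT libraries, and that to IAP-d-int was 4.66, 4.85 and 4.85 against 6.60, 6.62 and 6.45. Both ratios were lower in 3 of 3 G4 Terc-/- libraries (exact permutation p = 0.1, adjusted p = 0.1). Of the 21 other IAP names tested, 7 rose and 5 fell in G4 Terc-/- ESCs, against 23.1% called higher and 23.4% lower among all repeat names, with a median of 0.15 against 0.

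Genes that act on IAP chromatin or on DNA methylation were followed through the repeats in their exons, on a list of 48. Of these, 39 had counts, 27 passed the filter, and Setdb2, Dnmt3l, Uhrf1, Daxx, Zfp708, Mael, Ctbp2, Max and Yy1 were at 0. In G4 Terc-/- against WT ESCs 9 rose and 5 fell, where 24.4% of tested genes were called higher and 24% lower, with a median log2 difference of 0.24 against 0.00 over all tested genes. Suv39h1, an H3K9 methyltransferase, averaged 82.8 ± 6.43 CPM in G4 Terc-/- ESCs, 274 ± 5.40 CPM in G1 Terc-/- ESCs and 384 ± 54.0 CPM in WT ESCs, and fell by 2.22 on the log2 scale (SE 0.12, adjusted p = 2.05e-22, edgeR). Pphln1, a subunit of the HUSH silencing complex, fell by 0.95 (SE 0.10). Zfp809, a zinc finger protein that binds the primer binding site of some retroviruses, fell by 0.48 (SE 0.10). Binding of Zfp809 to the IAPEz-int start shown above was not tested. Trim28, the co-repressor, averaged 38.0 ± 6.80, 17.4 ± 8.06 and 19.8 ± 6.38 CPM and rose by 0.93 (SE 0.30, adjusted p = 0.00808, edgeR). The 9 that rose include Tet1 and Tet2, dioxygenases of 5-methylcytosine that work against DNA methylation, at 0.90 and 0.87 (SE 0.11 and 0.24). Hells, a remodeller needed for DNA methylation of repeats, rose by 0.36 (SE 0.08). In G1 Terc-/- against WT ESCs 3 of the 27 genes rose and 3 fell, against 4.6% called higher and 6.54% lower among tested genes.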

How the data were processed

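The table holds 9 libraries of ESC RNA (G4 Terc-/-, G1 Terc-/- and WT, 3 each; columns named Control were taken as WT). Per the labels, total RNA went into TruSeq libraries after feeder removal, and the submitters' processing notes name FastQC 0.11.9, STAR 2.5.3a, featureCounts and mm10. The estimated counts deposited by the authors are given per single TE copy, and how shared reads were divided is not given in the sources used here. The second table holds a signal that the authors made from rounded counts by 1 size factor per library, and served only to check that relation. Library totals ran from 918879 to 1137257 counts, which limits single copies most. Counts were rounded, filtered (filterByExpr), scaled by TMM and fitted over all libraries with edgeR 4.0.16 in R 4.3.3 (quasi-likelihood, two-sided, Benjamini-Hochberg over all features of a level). The SE is the log2 difference over the square root of F. Common dispersions were 0.0191 for copies and 0.00223 for repeat names. Copies were placed against 55536 GENCODE M21 gene models (exonic when at least 0.5 of the length lay in exons), using bedtools 2.31.1, and sequences were aligned with blastn 2.17.0. The scripts were tested on simulated data.

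Members, lists and tests were chosen with earlier results of these data known. The named copies were the 8 largest falls and rises between G4 Terc-/- and WT ESCs and 4 of each in the other comparisons among called copies with a mean of at least 20 counts in the higher group and no overlap, the 6 with most counts, up to 3 called exonic copies, and the longest and least diverged. A rule part for called copies with whole values named none. The copy in Ccdc15 and the copy in Gm42860 were chosen for their sequence coverage. The alternatives were DESeq2 1.42.0 size factors and Wald test, library totals, a filter at 5 counts, a fold of 2, a replicate block, fits of 2 groups, loci, subsets of copies and leaving out each library.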

Additional observations from a re-analysis of the deposited data

How the results depend on the processing

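The summed IAPEz-int level kept its sign under every alternative run and lost its call only over copies with whole values, at -0.185 between G1 Terc-/- and WT ESCs and -0.095 between G4 Terc-/- and G1 Terc-/- ESCs. With each library left out in turn the sum was -1.38 to -1.27 (G4 Terc-/- against WT), -0.77 to -0.72 (G1 Terc-/- against WT) and -0.65 to -0.52 (G4 Terc-/- against G1 Terc-/-). With library totals as the only scaling, which moved the median of all repeat names by 0.14 between G4 Terc-/- and WT ESCs, the sum was -1.20 there. Copies called lower between G4 Terc-/- and WT ESCs numbered 247 with the DESeq2 Wald test and 353 with a filter at 5 counts in all, which tests more copies, against 152. Copies called higher numbered 14 with a fold of at least 2 as well, against 24. Between G1 Terc-/- and WT ESCs the 8 copies called higher became 4 with DESeq2, 5 with the filter at 5 counts, 3 with the fold, and 5 to 11 with a library left out, 5 of them without G1 replicate 2. Of the 176 copies called between G4 Terc-/- and WT ESCs, the DESeq2 test shared 141 and the filter at 5 counts 166, none in the opposite direction, and the cause was not tested. Among classes of copies, intronic copies had 0.26 for G4 Terc-/- against G1 Terc-/- (adjusted p = 2.1e-05, edgeR) with library totals, against 0.11, and copies at 1 to 20 Mb -0.10 (adjusted p = 0.0862, edgeR). Without the copy with most counts, copies under 500 bp had -0.31 for G1 Terc-/- against WT (adjusted p = 0.0614, edgeR) and copies within 1 Mb of an end -0.27 for G4 Terc-/- against G1 Terc-/- (adjusted p = 0.393, edgeR). Same-numbered libraries did not deviate together, so the numbers are not taken as pairs; with the replicate block the sums were -1.34, -0.74 and -0.60, and 175 of the 176 copies stayed called. Among copies chosen by rule, the call of a 158 bp copy in an intron of Senp2 between G1 Terc-/- and WT ESCs was lost with the replicate block (adjusted p = 0.0644, edgeR). No result reversed. Fewer than 5 counts in 50.2% of the copies, and reads divided among near-identical copies, limit what single copies can show.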
